A study of Mus musculus with 15 samples.

Results

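The genes described here encode the glutathione S-transferases, UDP-glucuronosyltransferases and sulfotransferases of mouse liver, the 3 large enzyme groups of phase II metabolism. Genes were taken by symbol, with the prefixes Gsta, Gstk, Gstm, Gsto, Gstp, Gstt, Mgst, Ugt1 to Ugt3 and Sult1 to Sult5, and by a summed count of at least 150 over the 15 libraries. Of 15302 genes in the table, 54 had such a symbol and 44 reached the sum: 21 glutathione, 8 sulfate and 15 glucuronide conjugating genes in 14 families. The members closest above the limit were Ugt1a10 with 156 counts and Sult2a7 with 161, and the closest below were Ugt2b37 with 110 and Ugt2b38 with 50. All 44 passed the low-count filter, and enzyme class was taken from the symbol alone. Ugt3a1 and Ugt3a2, of the UGT3 family, were therefore counted in the glucuronide class.

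All animals were wild-type mice kept on a diet that induces metabolic dysfunction-associated steatohepatitis (MASH), at about 29°C, from 8 weeks of age, and housed singly for treatment. The 5 GDF15 mice were injected subcutaneously each morning with recombinant GDF15 at 1 nmol/kg; GDF15 is a circulating hormone that lowers food intake. The 5 PairFed mice were given the amount of food that GDF15-treated mice had eaten the previous day, and the 5 Vehicle mice are named only by that treatment. Whether PairFed mice were injected and how long treatment lasted are not stated in the labels.

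Conjugating enzymes attach a polar group to drugs, bilirubin, steroids, bile acids and reactive electrophiles so that transporters can carry the product into bile or blood. Glutathione S-transferases use glutathione, sulfotransferases use the activated sulfate PAPS, and UDP-glucuronosyltransferases of the UGT1 and UGT2 families use mainly UDP-glucuronic acid. The hepatocyte is the main site of all 3 reactions, and nuclear receptors and the factor NRF2 are known to control many of these genes.

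Total counts were 8551557 to 10914914 in GDF15, 10133289 to 12933324 in PairFed and 9228127 to 12994187 in Vehicle libraries. The totals left a gap between 10914914 and 12137462, with 0 GDF15, 4 PairFed and 1 Vehicle libraries above it. The 44 genes held 1.24% of all counts, and their median level was 103 CPM (counts per 1000000 counts of the library, scaled here by the trimmed mean of M-values), against 18.7 CPM over all 12274 genes tested. Levels below are in CPM, and fold changes and adjusted p-values are from edgeR's quasi-likelihood test over all genes, with a gene called at an adjusted p below 0.05. All 10 hepatocyte markers and 3 of 10 markers of neighbouring tissues were in the table. Summed CPM of the 10 hepatocyte markers was 98384 to 125455 in GDF15, 92587 to 115341 in PairFed and 85098 to 105437 in Vehicle libraries. In bulk liver, fewer cells of a type and less RNA per cell cannot be told apart, and the part of this difference in the results was not tested.

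Per kilobase of the longest coding transcript, over all libraries, the leading members were the membrane-bound glutathione transferase Mgst1 with 2279 CPM per kb and the mu-class Gstm1 with 1602. They were followed by the alpha-class Gsta3 with 936 and the pi-class Gstp1 with 903. The highest glucuronosyltransferases were Ugt2b5 with 304 and Ugt1a1, the bilirubin-conjugating enzyme, with 300 CPM per kb. The highest sulfotransferase was Sult1a1 with 232 CPM per kb.

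Against Vehicle, GDF15 livers had 5 of the 44 genes called, which is 11.4% of them, beside 2.90% of all genes tested. The phenol sulfotransferase Sult1a1, the catecholamine-conjugating sulfotransferase Sult1d1 and the glutathione transferases Gstt1 and Gstk1 rose, and the glucuronosyltransferase Ugt2b35 fell. By direction these were 4 higher genes, with 2.02% of all genes called higher, and 1 lower gene, with 0.880% called lower. Unadjusted p was below 0.05 for 13 of the 44, against 16.7% of all genes. The groups did not overlap for 4 genes that were higher (2.48% of all genes) and 1 that was lower (1.51%). The log2 fold change was above 0 for 33 of the 44, against 48.9% of all genes. The median log2 fold change of the 44 was 0.11 and that of all genes was -0.0046. Without Vehicle 1 the median of the 44 was 0.07, with 33 above 0. Vehicle 1 was the lowest Vehicle library for 20 of the 44, and GDF15 1 the highest GDF15 library for 20. The 44 genes are therefore not independent counts of a group difference.

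The sulfotransferases held the largest increases among the called genes, and 2 of the 8 rose in GDF15 against Vehicle livers and 0 fell, beside 2.02% of all genes called higher and 0.880% called lower. Sult1a1 sulfates small phenols and lies on chromosome 7 (126672865 to 126690443, assembly GRCm38.p6). Sult1d1 acts on catecholamines and lies on chromosome 5 (87554650 to 87569006). The promoters of both are shown because these genes had the largest called increases, from 250 bases before to 50 after the RefSeq start, GRCm38.p6, 5′ to 3′ on the gene's own strand. The windows are chr7:126676369-126676668 on the minus strand, inside the annotated span of Sult1a1, and chr5:87568957-87569256 on the minus strand. Capitals mark matches on either strand to 4 searched motifs, described after the sequences.
Sult1a1: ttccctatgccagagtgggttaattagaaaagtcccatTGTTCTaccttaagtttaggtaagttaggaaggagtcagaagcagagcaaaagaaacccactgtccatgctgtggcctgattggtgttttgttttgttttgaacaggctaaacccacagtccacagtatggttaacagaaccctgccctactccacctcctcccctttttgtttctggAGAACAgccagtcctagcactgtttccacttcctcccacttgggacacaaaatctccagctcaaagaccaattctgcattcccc
Sult1d1: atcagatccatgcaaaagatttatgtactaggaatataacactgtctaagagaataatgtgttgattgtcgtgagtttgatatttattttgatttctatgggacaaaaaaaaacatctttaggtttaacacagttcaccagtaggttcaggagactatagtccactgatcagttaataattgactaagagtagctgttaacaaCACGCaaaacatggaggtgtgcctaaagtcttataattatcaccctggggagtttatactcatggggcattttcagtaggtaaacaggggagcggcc

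The table held 32851 promoter windows, and 39 of the conjugating genes matched 48 of them. The core of the antioxidant response element, TGACNNNGC, was in 12.4% of all windows and in 4 of the 48 windows of conjugating genes (8.33%). The core of the xenobiotic response element, GCGTG, was in 32.4% of all windows and in 11 of the 48 (22.9%). The hexamer of the glucocorticoid response element, AGAACA, was in 19.0% of all windows and in 13 of the 48 (27.1%). The full glucocorticoid response element palindrome, which contains that hexamer on both strands, was in 3 windows in all and in 0 of the 48. The Sult1a1 window had 2 matches to AGAACA, 1 of them as TGTTCT on the other strand, and the Sult1d1 window had 1 match to GCGTG, as CACGC. Such matches describe the letters of the window and are not evidence of binding.

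Sult1a1 had 435.8, 432.5, 364.4, 407.3 and 319.3 CPM in the 5 GDF15 livers and 366.1, 371.2, 309.1, 280.7 and 286.2 CPM in the PairFed livers, against 194.8, 265.0, 249.2, 249.6 and 245.0 CPM in the Vehicle livers. Every GDF15 and every PairFed liver lay above every Vehicle liver, while GDF15 and PairFed overlapped, and Vehicle 1 was the lowest of all. Against Vehicle, Sult1a1 was 1.63-fold higher in GDF15 livers (log2 fold change 0.70 ± 0.10 SE, edgeR adjusted p = 0.001884). The PairFed difference from Vehicle was 0.42 ± 0.10 (adjusted p = 0.07526) and the GDF15 difference from PairFed was 0.28 ± 0.10 (adjusted p = 0.2403), neither past the threshold. The GDF15 difference from Vehicle was 0.64 to 0.76 when each library was left out in turn, and was called in all 15 fits.

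Sult1d1 had 186.4, 183.5, 126.3, 142.1 and 145.3 CPM in GDF15 livers and 123.6, 125.1, 92.2, 92.6 and 98.5 CPM in PairFed livers, against 86.2, 93.8, 71.9, 96.1 and 93.3 CPM in Vehicle livers. Each GDF15 liver lay above each liver of the other groups, and the PairFed and Vehicle livers overlapped. Sult1d1 was 1.77-fold higher in GDF15 than in Vehicle livers (0.83 ± 0.12, adjusted p = 0.002022) and 1.47-fold higher in GDF15 than in PairFed livers (0.56 ± 0.12, adjusted p = 0.04524). Its PairFed difference from Vehicle was 0.27 ± 0.12 (adjusted p = 0.2773). The GDF15 difference from Vehicle was called in all 15 fits that left out 1 library. The GDF15 difference from PairFed was called in 5 of 15, with 0.49 to 0.63 and adjusted p of 0.02022 to 0.1413, and was lost without Vehicle 1, 2 or 5, GDF15 1, 2, 4 or 5, or PairFed 3, 4 or 5.

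Immediate-early genes respond quickly to many stimuli. Their summed CPM was 779 to 2523 in GDF15, 839 to 1546 in PairFed and 582 to 1036 in Vehicle libraries, and 0 of 24 tested were called by edgeR in any contrast. Against Vehicle, 15 of the 24 in GDF15 livers had an unadjusted p below 0.05, against 16.7% of all genes. DESeq2 called 7, against 5.23% of all genes, and limma-voom 0, against 2.47%. The median log2 fold change of the 24 was 0.82, against -0.0046 for all genes. Against Vehicle, 8 of the 24 in PairFed livers had such a p, against 16.9% of all genes, and DESeq2 called 2, against 2.76%. A score of these 24 genes, centred at 0, was -0.428 to 0.779 in GDF15, -0.321 to 0.456 in PairFed and -0.645 to -0.0412 in Vehicle libraries. Only GDF15 3 overlapped Vehicle among GDF15 libraries, so score and group largely cannot be told apart there. With that score as a covariate, the GDF15 difference from Vehicle was 0.57 for Sult1a1 and 0.52 for Sult1d1, both with an adjusted p of 0.1563. In that fit it was -0.36 for Ugt2b35 (adjusted p = 0.1232), 0.31 for Gstt1 (adjusted p = 0.5224) and 0.22 for Gstk1 (adjusted p = 0.6614), and 0 conjugating genes and 7 of all genes were called.

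The other sulfotransferases were not called by edgeR or DESeq2. Sult1e1, which inactivates oestrogens, had a GDF15 difference from Vehicle of 1.08 ± 0.43 (adjusted p = 0.2049) at a mean of 2.78 ± 2.08 CPM in GDF15 and 1.33 ± 0.525 CPM in Vehicle livers (SD, n = 5 each), with GDF15 2 alone at 6.42 CPM. Sult2a8, a bile acid sulfotransferase in mice, averaged 225 ± 54.8 CPM in GDF15, 180 ± 52.2 CPM in PairFed and 158 ± 76.6 CPM in Vehicle livers (SD, n = 5 each). Its GDF15 difference from Vehicle was 0.50 ± 0.33 (adjusted p = 0.4863). Summed over the 5 Sult1 genes, the mean was 581 ± 74.2 CPM in GDF15, 462 ± 60.2 CPM in PairFed and 356 ± 32.3 CPM in Vehicle livers (SD, n = 5 each), and neither GDF15 nor PairFed overlapped Vehicle. Within that sum Sult1a1 held 67.5% in GDF15, 69.8% in PairFed and 67.4% in Vehicle livers.

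**Figure D1:**
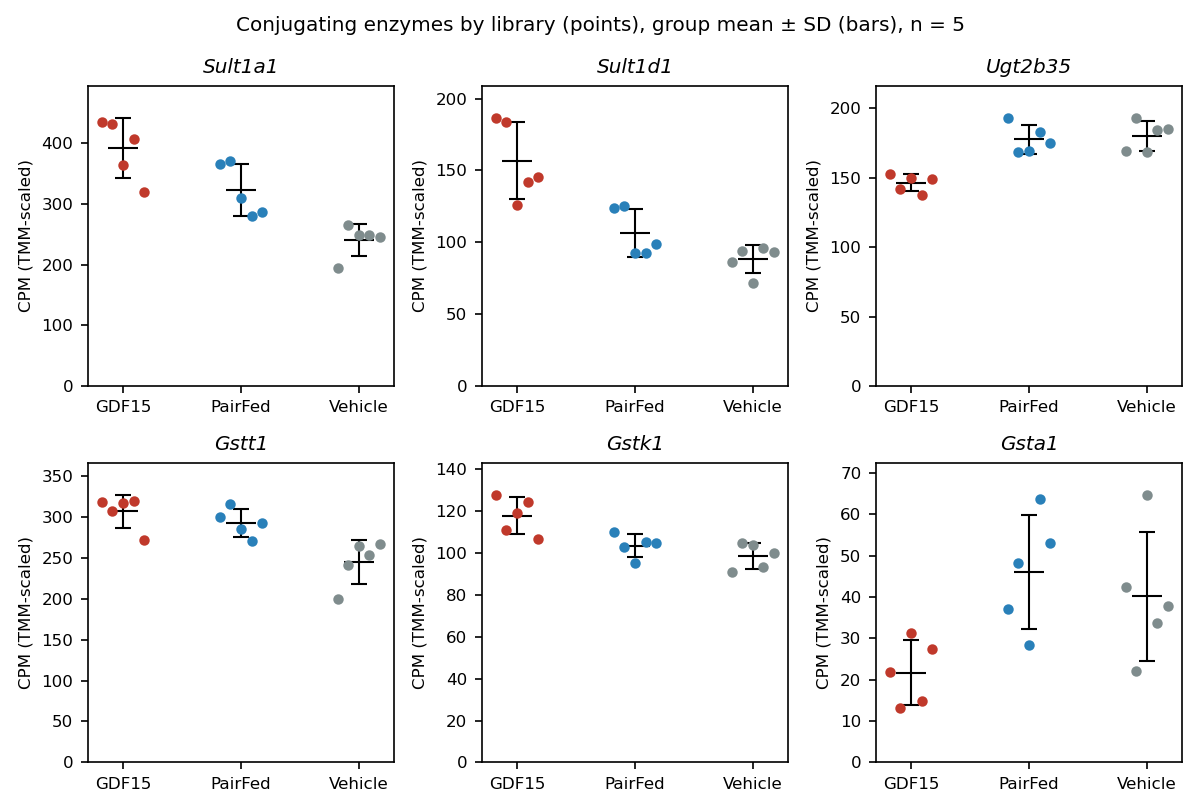
CPM per library (points; y axis from 0) of 6 conjugating genes in GDF15, PairFed and Vehicle livers, with the group mean ± SD (bars, n = 5 each). Sult1a1 and Sult1d1 in GDF15 livers lay above all Vehicle livers, Ugt2b35 lay below all livers of both other groups, and Gsta1 overlapped between groups.

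Among the 21 glutathione-conjugating genes, 2 rose in GDF15 against Vehicle livers and 0 fell, beside 2.02% of all genes called higher and 0.880% called lower. Gstt1, a theta-class enzyme that acts on small halogenated compounds, had 318.3, 306.5, 317.3, 319.4 and 271.0 CPM in GDF15 livers and 299.4, 315.7, 284.5, 271.0 and 291.9 CPM in PairFed livers, against 199.3, 240.5, 264.0, 252.8 and 266.9 CPM in Vehicle livers. Neither the GDF15 nor the PairFed livers overlapped the Vehicle livers, and GDF15 5 and PairFed 4 came closest to them. Gstt1 was 1.25-fold higher in GDF15 than in Vehicle livers (0.32 ± 0.08, adjusted p = 0.02807). The PairFed difference from Vehicle was 0.26 ± 0.08 (adjusted p = 0.1182) and the GDF15 difference from PairFed was 0.07 ± 0.08 (adjusted p = 0.7609). The GDF15 difference from Vehicle was called in 10 of 15 fits that left out 1 library (0.26 to 0.36, adjusted p of 0.01838 to 0.07667), and was lost without Vehicle 1 or 2 or GDF15 1, 2 or 4.

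Gstk1, the kappa-class enzyme of mitochondria and peroxisomes, had 127.9, 111.0, 119.0, 124.4 and 106.7 CPM in GDF15 livers and 110.1, 103.1, 95.0, 105.1 and 104.6 CPM in PairFed livers, against 91.1, 104.7, 103.9, 93.5 and 99.96 CPM in Vehicle livers. All GDF15 livers lay above all Vehicle livers, by a narrow margin. Gstk1 was 1.19-fold higher in GDF15 than in Vehicle livers (0.26 ± 0.06, adjusted p = 0.03726), a call that 5 of the 15 fits without 1 library kept (0.23 to 0.29, adjusted p of 0.02615 to 0.1094). It was lost without Vehicle 1, 3, 4 or 5, GDF15 1, 2, 3 or 4, or PairFed 4 or 5.

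The other theta-class genes were variable. Gstt3 averaged 65.3 ± 17.8 CPM in GDF15, 61.7 ± 17.8 CPM in PairFed and 38.6 ± 8.86 CPM in Vehicle livers (SD, n = 5 each), with a GDF15 difference from Vehicle of 0.76 ± 0.24 (adjusted p = 0.1131). Gstt2 averaged 58.2 ± 5.03 CPM in GDF15, 73.1 ± 15.36 CPM in PairFed and 49.6 ± 12.6 CPM in Vehicle livers (SD, n = 5 each). The 3 theta-class genes lie together on chromosome 10, and their sum averaged 430 ± 34.3 CPM in GDF15, 427 ± 32.1 CPM in PairFed and 333 ± 37.4 CPM in Vehicle livers (SD, n = 5 each), with neither GDF15 nor PairFed overlapping Vehicle.

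The other 19 glutathione-conjugating genes were not called by edgeR in any of the 3 comparisons in the fit of all 15 libraries. DESeq2 called Gsta3, Gsto1 and Gstt3 higher in GDF15 against Vehicle livers, Gstt2 higher in PairFed against Vehicle livers and Gsta1 lower in GDF15 against PairFed livers. Gstt2 was also called by edgeR in GDF15 against Vehicle livers with a term for the depth gap and with only the libraries below it. Mgst1 averaged 2646 ± 157 CPM in GDF15, 2608 ± 110 CPM in PairFed and 2725 ± 137 CPM in Vehicle livers (SD, n = 5 each). Gsta3, which conjugates aflatoxin epoxide in mice, had a GDF15 difference from Vehicle of 0.27 ± 0.08 (adjusted p = 0.07321). Gsto1, an omega-class enzyme that reduces dehydroascorbate, had one of 0.32 ± 0.09 (adjusted p = 0.05817). Gstp1 averaged 682 ± 61.5 CPM in GDF15, 781 ± 34.4 CPM in PairFed and 761 ± 36.9 CPM in Vehicle livers (SD, n = 5 each), with a GDF15 difference from PairFed of -0.20 ± 0.07 (adjusted p = 0.1991). Summed over the 3 Gstp genes, GDF15 livers (617 to 768 CPM) lay narrowly below all PairFed livers (774 to 858 CPM). They overlapped Vehicle livers (746 to 858 CPM).

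Gsta1 stood lowest in GDF15 livers without being called. It had 21.8, 13.2, 31.2, 14.9 and 27.5 CPM in GDF15 and 37.0, 48.1, 28.3, 63.6 and 53.1 CPM in PairFed livers, against 42.4, 22.1, 64.8, 33.6 and 37.8 CPM in Vehicle livers, and all groups overlapped. Its GDF15 difference from Vehicle was -0.88 ± 0.32 (adjusted p = 0.1764), and that from PairFed was -1.08 ± 0.32 (adjusted p = 0.1549), a difference that DESeq2 called. Of the 31-base words in its transcripts, 92.9% were shared with another gene, mostly Gm3776, so its counts may include reads of near-identical copies.

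**Figure D2:**
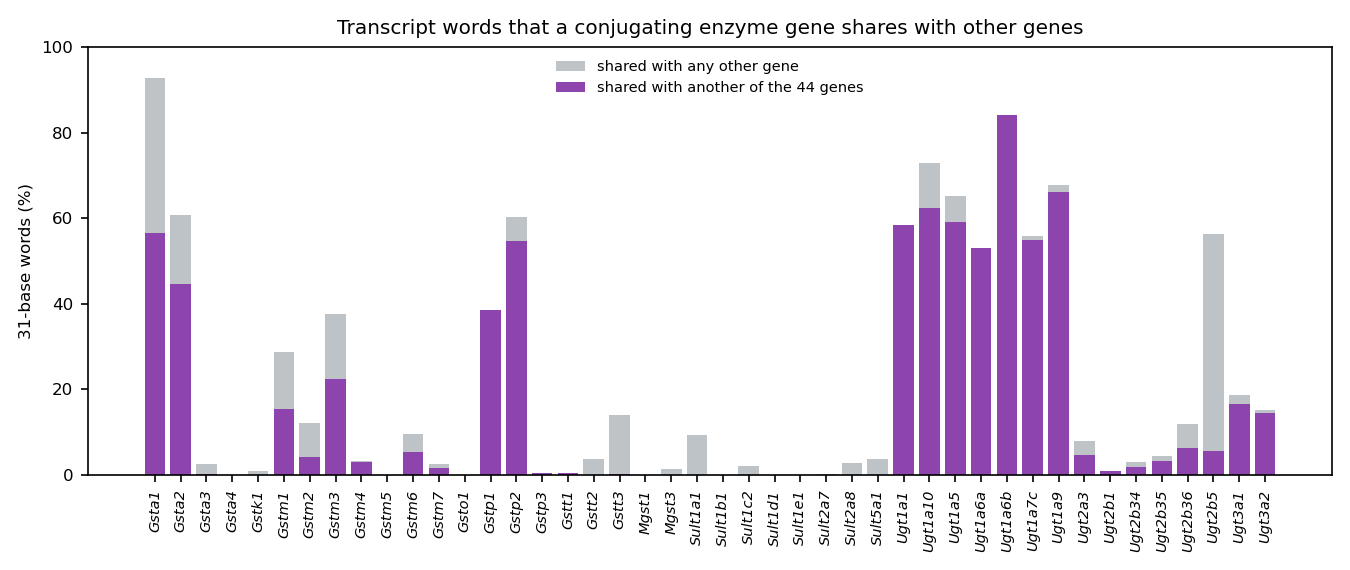
Percent of the 31-base words of each conjugating gene's transcripts (y axis) that occur in another gene: grey for any gene, purple for another of the 44. The Ugt1a genes shared 53.0 to 84.2% with other members, while Sult1d1 shared 0 with any gene.

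Of the 15 genes of the glucuronide class, 1 fell in GDF15 against Vehicle livers and 0 rose, beside 0.880% of all genes called lower and 2.02% called higher. Ugt2b35, a UGT2B enzyme, lies on chromosome 5 (87000860 to 87013274) in a stretch of 702 kb that holds 9 of the 44 genes, Sult1d1 among them. Its promoter window is shown because it was the gene called lower, chr5:87000610-87000909 on the plus strand of GRCm38.p6 from RefSeq, in which none of the 4 motifs matched, so no base is in capitals.
Ugt2b35: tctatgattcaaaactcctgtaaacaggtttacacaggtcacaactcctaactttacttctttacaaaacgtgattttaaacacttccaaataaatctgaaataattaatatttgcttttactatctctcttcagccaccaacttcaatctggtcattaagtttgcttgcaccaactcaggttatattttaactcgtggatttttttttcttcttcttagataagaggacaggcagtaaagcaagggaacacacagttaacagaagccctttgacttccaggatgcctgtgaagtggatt

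Ugt2b35 had 152.7, 142.0, 150.1, 137.8 and 149.4 CPM in GDF15 livers and 193.0, 168.8, 169.1, 183.0 and 174.8 CPM in PairFed livers, against 169.5, 192.8, 168.5, 184.4 and 184.8 CPM in Vehicle livers. All 5 GDF15 livers lay below every PairFed and Vehicle liver, and the PairFed and Vehicle livers covered nearly the same range. The level was 1.23-fold lower in GDF15 than in Vehicle livers (-0.30 ± 0.06, adjusted p = 0.009857) and 1.21-fold lower than in PairFed livers (-0.28 ± 0.06, adjusted p = 0.03436). The PairFed difference from Vehicle was -0.02 ± 0.06 (adjusted p = 0.9029). The call against Vehicle held in all 15 fits that left out 1 library. The call against PairFed held in 9 of 15 (-0.30 to -0.25, adjusted p of 0.02843 to 0.1117) and was lost without Vehicle 5, GDF15 1, 2 or 4, or PairFed 4 or 5. As a share of the 5 Ugt2b genes, which does not depend on scaling, Ugt2b35 held 7.76% ± 0.374 in GDF15, 9.34% ± 0.667 in PairFed and 9.81% ± 0.286 in Vehicle livers (SD, n = 5 each).

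The other genes of the glucuronide class were not called by edgeR or DESeq2. The 5 Ugt2b genes summed to 1887 CPM in GDF15, 1909 CPM in PairFed and 1836 CPM in Vehicle livers, and the 7 Ugt1a genes to 1265, 1264 and 1137 CPM in GDF15, PairFed and Vehicle livers. Ugt1a5 averaged 146 ± 44.7 CPM in GDF15, 155 ± 17.5 CPM in PairFed and 90.1 ± 37.1 CPM in Vehicle livers (SD, n = 5 each), with a PairFed difference from Vehicle of 0.78 ± 0.27 (adjusted p = 0.1716). The Ugt1a genes use the same last exons, so the split of reads among them is uncertain and the sum is the firmer value.

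**Figure D3:**
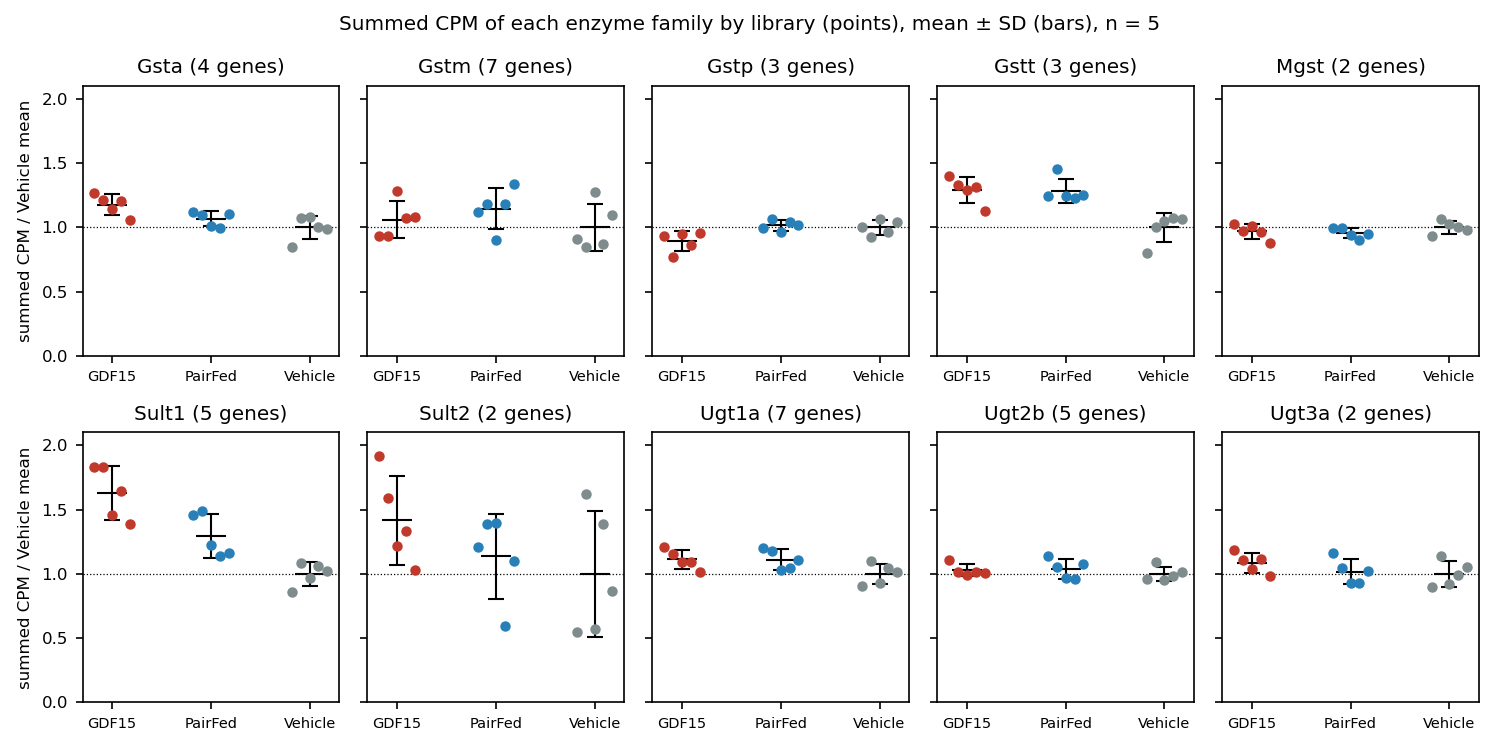
Summed CPM of each family with at least 2 genes, divided by the Vehicle mean (y axis), for GDF15, PairFed and Vehicle libraries (points), with the group mean ± SD (bars, n = 5 each). The Sult1 and Gstt sums lay above all Vehicle libraries in both GDF15 and PairFed livers. The Gstp sum in GDF15 livers lay narrowly below all PairFed libraries.

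Pair-feeding alone was compared with Vehicle next. None of the 44 genes was called by edgeR's quasi-likelihood test (0 of 44), beside 0.285% of all genes (0.147% higher and 0.139% lower). DESeq2 called 3 of the 44 (Gstt1, Gstt2 and Sult1a1), which is 6.82%, beside 2.76% of all genes. With limma-voom 0 of the 44 were called, beside 0.326% of all genes. Unadjusted p was below 0.05 for 10 of the 44, against 16.9% of all genes. The log2 fold change was above 0 for 37 of the 44, against 49.9% of all genes, and its median was 0.13, against -0.0005 for all genes. Without Vehicle 1 the median of the 44 was 0.06, and without PairFed 2 it was 0.08. Gsto1, Gstt1 and Sult1a1 did not overlap between PairFed and Vehicle livers, being higher in PairFed livers, and 2.21% of all genes did likewise. Of the 44 genes 0 lay wholly lower, against 1.71% of all genes. Above the depth gap lay 4 of 5 PairFed and 1 of 5 Vehicle libraries, so depth and group partly cannot be told apart in this comparison. With a term for the gap, edgeR called 0 of the 44 and 0 of all genes. In that fit the median of the 44 was 0.12 and the difference for Gstt2 was 0.18, against 0.56 without the term.

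In GDF15 against PairFed livers, which were matched for food given, 2 of the 44 genes were called, beside 0.782% of all genes. They were Sult1d1, higher, and Ugt2b35, lower, with 0.562% of all genes called higher and 0.220% lower. Unadjusted p was below 0.05 for 7 of the 44, against 13.3% of all genes. The log2 fold change was above 0 for 21 of the 44, against 50.2% of all genes, and its median was -0.0065. The groups did not overlap for 1 gene that was higher, Sult1d1 (1.31% of all genes), and 1 that was lower, Ugt2b35 (1.55%). GDF15 libraries were all below the depth gap and 4 of 5 PairFed libraries above it, so depth and group largely cannot be told apart here. With a term for the gap the differences were 0.51 for Sult1d1 (adjusted p = 0.4227) and -0.32 for Ugt2b35 (adjusted p = 0.2153), and 0 of the 44 were called. With only the libraries below the gap, where 1 PairFed library remains, they were 0.34 for Sult1d1 and -0.40 for Ugt2b35 (both with an adjusted p of 1), and again 0 of the 44 were called.

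**Figure D4:**
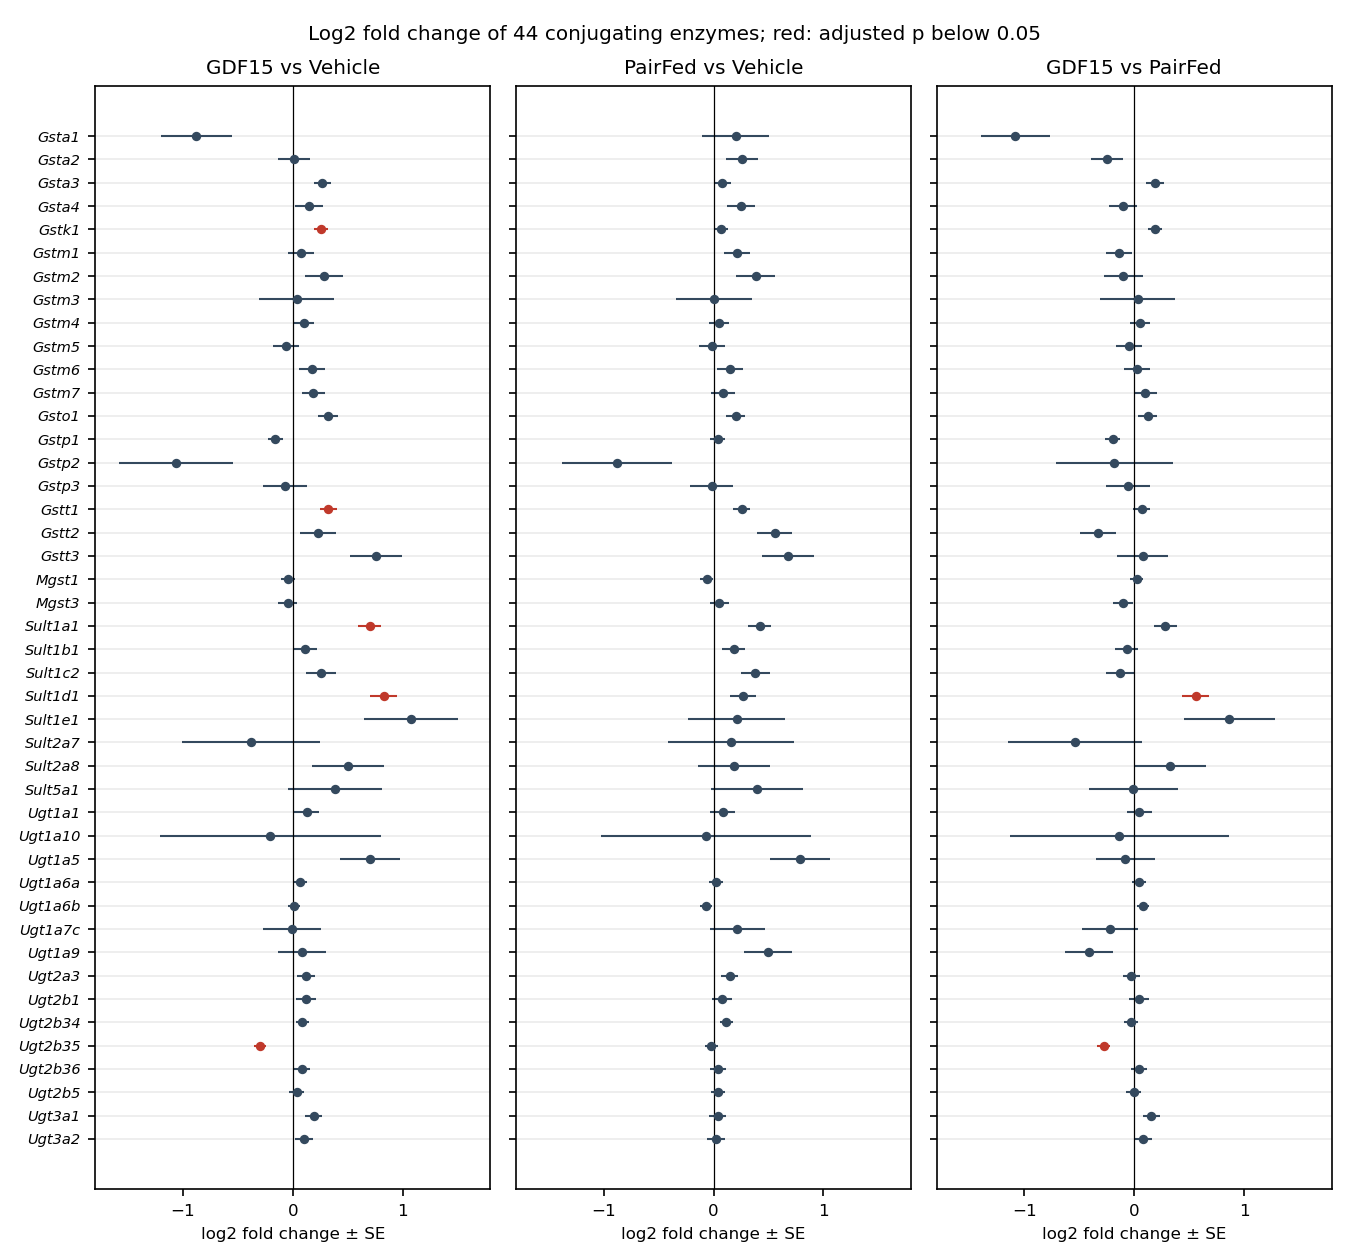
Log2 fold change ± SE (x axis) of the 44 conjugating genes (rows) in 3 panels, GDF15 over Vehicle, PairFed over Vehicle and GDF15 over PairFed, with called genes in red. Most points lie within 0.5 of 0, with 36 of 44 in GDF15 over Vehicle and 40 of 44 in each other panel.

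Genes that supply the conjugating reactions, or lie near those routes, were counted in lists. In sulfate donor supply the list median was 0.02 in GDF15 against Vehicle livers, where 2.02% of all genes were called higher and 0.880% lower. In that list 1 of 15 genes rose and 0 fell. It was Papss2, which makes the sulfate donor PAPS, at 215 ± 27.0 CPM in GDF15, 169 ± 20.2 CPM in PairFed and 129 ± 21.0 CPM in Vehicle livers (SD, n = 5 each; 0.74 ± 0.11, adjusted p = 0.001987). Its PairFed difference from Vehicle was 0.38 ± 0.11 (adjusted p = 0.1111) and its GDF15 difference from PairFed 0.35 ± 0.11 (adjusted p = 0.1578). Its call against Vehicle held in all 15 fits that left out 1 library.

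In glutathione supply and turnover, 3 of 22 genes rose in GDF15 against Vehicle livers and 0 fell, beside 2.02% of all genes called higher and 0.880% called lower. They were Cth, which makes cysteine (0.44, adjusted p = 0.02722), the gamma-glutamyltransferase Ggt6 (0.30, adjusted p = 0.0332) and the glutaredoxin Glrx (0.33, adjusted p = 0.03637). Gclc, the catalytic subunit of the rate-limiting step of glutathione synthesis, averaged 487 CPM in GDF15, 510 CPM in PairFed and 635 CPM in Vehicle livers and was not called (GDF15 vs Vehicle -0.38, adjusted p = 0.1403). With 1 library left out, the calls held in 9 of 15 fits for Cth, 9 for Ggt6 and 8 for Glrx.

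The list for UDP-glucuronic acid supply included Slc37a4, the glucose 6-phosphate transporter of the endoplasmic reticulum, which does not itself make UDP-glucuronic acid. Slc37a4 was higher in GDF15 than in Vehicle livers (0.36, adjusted p = 0.02703) and than in PairFed livers (0.38, adjusted p = 0.04477). With 1 library left out, its call against Vehicle held in 10 of 15 fits and that against PairFed in 4. Ugdh, which makes UDP-glucuronic acid itself, was not called (GDF15 vs Vehicle -0.03, adjusted p = 0.8992).

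Of 22 other conjugating enzymes, the arsenic methyltransferase As3mt (0.39, adjusted p = 0.01066) and the glycine methyltransferase Gnmt (0.71, adjusted p = 0.01062) rose in GDF15 against Vehicle livers. In that comparison 2.02% of all genes were called higher and 0.880% lower. Of 14 conjugate exporters and related transporters, Abcc6 rose (0.25, adjusted p = 0.0495) and Abcc5 fell (-0.53, adjusted p = 0.01943). With 1 library left out, the calls held in all 15 fits for As3mt and Gnmt, in 12 for Abcc5 and in 2 for Abcc6. These 5 lists held 11 to 22 tested genes each. In PairFed against Vehicle livers, 0 of their genes were called by edgeR and limma-voom, beside 0.285% and 0.326% of all genes. DESeq2 called 4, beside 2.76% of all genes, and 19 had an unadjusted p below 0.05, beside 16.9% of all genes.

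Among 27 genes listed as regulators of conjugating enzymes, 4 rose in GDF15 against Vehicle livers and 0 fell. Of all genes, 2.02% were called higher and 0.880% lower. The pregnane X receptor gene Nr1i2 averaged 120 ± 18.6 CPM in GDF15, 96.2 ± 7.76 CPM in PairFed and 82.6 ± 11.6 CPM in Vehicle livers (SD, n = 5 each; GDF15 vs Vehicle 0.54 ± 0.11, adjusted p = 0.01212). The others were Cebpb (1.26, adjusted p = 0.01249), the coactivator gene Ppargc1a (1.02, adjusted p = 0.003707) and the cytochrome P450 reductase gene Por (1.18, adjusted p = 0.02955). Por was in the list although it encodes an enzyme and not a regulator. Not called against Vehicle were Nr1i3 (0.27, adjusted p = 0.5338), Ahr (0.83, adjusted p = 0.1335), the NRF2 gene Nfe2l2 (-0.34, adjusted p = 0.1555) and the glucocorticoid receptor gene Nr3c1 (0.06, adjusted p = 0.7782). With 1 library left out, the calls held in all 15 fits for Nr1i2, Cebpb and Ppargc1a and in 8 for Por. Ppargc1a was also higher in GDF15 than in PairFed livers (0.86, adjusted p = 0.02534), a call that held in 10 of 15 such fits and was lost without GDF15 1 or 2 or PairFed 3, 4 or 5.

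Of 23 tested NRF2 target genes outside the 44, 0 were called by edgeR in any of the 3 comparisons, with a GDF15 vs Vehicle median of -0.04. Of all genes, edgeR called 2.90% in GDF15 vs Vehicle, 0.285% in PairFed vs Vehicle and 0.782% in GDF15 vs PairFed. Unadjusted p was below 0.05 for 3, 4 and 0 of the 23 in these comparisons, against 16.7%, 16.9% and 13.3% of all genes. DESeq2 called 1, 3 and 0 of the 23, against 5.23%, 2.76% and 2.11% of all genes. Of 21 targets of the receptors CAR and PXR, 2 rose in GDF15 against Vehicle livers and 0 fell. Of all genes, 2.02% were called higher and 0.880% lower. The 2 targets were Cyp3a59 (0.52, adjusted p = 0.021) and Por, which was also counted in the list of regulators. The median of the 21 was 0.36, against -0.0046 for all genes. Unadjusted p was below 0.05 for 8, 5 and 2 of the 21 in the same 3 comparisons, and DESeq2 called 4, 3 and 0. With 1 library left out, the call of Cyp3a59 held in 11 of 15 fits and was lost without Vehicle 1 or 3 or GDF15 1 or 2.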

How the data were processed

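Livers of 15 mice were profiled by RNA sequencing, 5 libraries per group, from total RNA made into directional libraries, per the labels' protocols. The authors deposited whole-number estimated counts per gene symbol. Per the submitters' processing notes, Salmon, DESeq2 and the build mm10 were used, with no version given; taking the values as Salmon estimates rests on those notes, and the strand setting of the counting is not given in the sources used here. Columns were assigned to groups by name, and libraries are numbered by table order, as names only.

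Counts were filtered with filterByExpr (count 10, total 15), which left 12274 genes holding 99.9% of the counts, scaled by TMM and tested in one model of the 15 libraries with edgeR 4.0.16 (quasi-likelihood, robust; R 4.3.3), with Benjamini-Hochberg adjustment over all genes tested in each contrast. Each SE was computed from the fold change and its F statistic. Alternatives used DESeq2 1.42.0, limma 3.58.1, other scalings and filters, covariates and leaving out each library. Total counts were 8551557 to 12994187 per library and the common biological coefficient of variation was 13.3%, so small differences of genes with few counts are imprecise. In all 30 pairs of libraries within a group the chi-square over its degrees of freedom was 6.87 to 37.5, so no pair was a duplicate within sampling noise. P-values set a group difference against the spread between these libraries, which was estimated with information from all genes tested.

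The genes, lists and named genes were chosen with earlier results of these data known. Named were members called in any contrast, the 3 highest and 3 lowest by log2 fold change above a mean log2 CPM of 1, the top member of each family, flagged members, called list genes and a few regulators; not all are printed, and 1 list gene and its list's count are not reported here. Positions and promoter windows are from RefSeq, GRCm38.p6, the assembly that mm10 is built on. Shared 31-base words, which replaced a planned comparison of proteins, and transcript lengths are from GENCODE M21 transcripts. The test was checked on simulated counts, with changes set in the GDF15 libraries only. Of 60 genes changed by 0.5 log2 units, it called 31 in GDF15 vs Vehicle and 28 in GDF15 vs PairFed. Of 65 changed by 2 log2 units, it called 64 and 63. No change was simulated between PairFed and Vehicle. A gene that was not called can thus still differ by about 0.5.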

Additional observations from a re-analysis of the deposited data

Results flagged for a closer look

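Within a group of 5, a library was singled out where its gap to the nearest other library exceeded 0.71 of the group's range, which chance does in about 1 in 20 groups. This occurred in 8 of 132 gene and group combinations and 3 of 42 family and class sums.

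Vehicle 1 stood low for Sult1a1 with 195 CPM and for Gsto1 with 41.6 CPM, and its Gstt sum was low at 268 CPM. Without it, Sult1a1 in GDF15 livers was 0.64 above Vehicle on the log2 scale (edgeR adjusted p = 0.005513). PairFed 2 stood high for the Gstt sum with 484 CPM, and Vehicle 4 stood high for Gstt2 with 71.8 CPM. GDF15 5 stood low for Gstt1 with 271 CPM, GDF15 2 stood high for Sult1e1 with 6.42 CPM, and GDF15 1 stood high for the Ugt2b sum with 2035 CPM. PairFed 5 stood low for Gstm5 with 9.43 CPM, PairFed 3 stood low for Ugt1a6a with 142 CPM, and Vehicle 2 stood high for Ugt2b36 with 576 CPM.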

How the results depend on the processing

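Sult1a1 and Sult1d1 in GDF15 against Vehicle passed the threshold in 24 of 25 other settings, all 15 that left out a library among them, and failed with the immediate-early score as covariate. Ugt2b35 passed in 23, Gstt1 in 17 and Gstk1 in 9. Members called against Vehicle numbered 8 with DESeq2, 3 with only the groups compared, 5 with the depth term (4 of the 5 and Gstt2), 3 below the depth gap (2 of the 5 and Gstt2), 0 with the immediate-early score and 3 to 7 without 1 library, against 5. In PairFed against Vehicle they numbered 3 with DESeq2 and 0 to 1 without 1 library (Gstt2, without Vehicle 4 or PairFed 1), against 0. In GDF15 against PairFed they numbered 1 without the filter, 1 with only the groups compared, 1 with the score, 0 with the depth term, 0 below the gap (where 1 PairFed library remains, assumed to vary like the others) and 0 to 2 without 1 library, against 2; the cause was not tested. Of all genes, GDF15 vs Vehicle calls were 356, against 642 with DESeq2, 194 with only the groups compared, 151 below the gap, 7 with the score and 134 to 476 without 1 library. PairFed vs Vehicle calls were 35, against 339 with DESeq2, 0 with the depth term, 0 below the gap, 0 with the score and 0 to 135 without 1 library. GDF15 vs PairFed calls were 96, against 259 with DESeq2, 9 with the depth term, 0 below the gap, 40 with the score and 21 to 171 without 1 library. The share of calls that were higher was 69.7% in GDF15 vs Vehicle and 58.7% with upper-quartile scaling, and 51.4% in PairFed vs Vehicle, 32.5% with that scaling and 38.5% with a filter of 10 CPM in 5 libraries. The sum of all members was 12755 CPM in GDF15 and 11883 CPM in Vehicle livers with TMM factors and 12198 CPM in GDF15 and 12314 CPM in Vehicle livers without them, so its direction turned with the scaling, as did those of the glutathione and glucuronide class sums. Values near 0 changed sign, and so did the larger Gstt2 difference of GDF15 from PairFed. For GDF15 vs Vehicle, Nr3c1 was -0.0508 with the score and -0.00436 to 0.110 without 1 library, and Ugdh was 0.0254 with the score and -0.0703 to 0.00801 without 1 library. For PairFed vs Vehicle, Ugt2b35 was 0.0121 with the depth term, 0.106 below the gap and -0.0491 to 0.00794 without 1 library, and Ugt1a6b was 0.0575 below the gap, while Gstt2 was 0.18 with the depth term, against 0.56. For GDF15 vs PairFed, Gstt2 was 0.208 with the depth term and 0.160 below the gap, against -0.33 without either. No paired analysis was possible because nothing ties a column or animal of one group to one of another. Depth limits genes of few counts such as Sult2a7 and Ugt1a10.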

Other observations

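Genes that mark liver position and sex were described with the same fit, in which 2.02% of all genes were called higher and 0.880% lower in GDF15 against Vehicle livers. Of 12 periportal genes, 5 rose in GDF15 against Vehicle livers and 0 fell: Arg1 and Ass1 of the urea cycle (0.59, adjusted p = 0.002275, and 0.75, adjusted p = 0.001544), the glutaminase Gls2 (0.74, adjusted p = 0.001669), the histidine ammonia-lyase Hal (0.63, adjusted p = 0.04219) and the serine dehydratase Sds (1.57, adjusted p = 0.0002743), all by edgeR's quasi-likelihood test. Ass1 and Sds were also called against PairFed. With 1 library left out, Hal kept its call against Vehicle in 6 of 15 fits and Ass1 its call against PairFed in 6, and the other calls of these 5 genes held in all 15. Of 12 pericentral genes, 1 rose and 0 fell, with the sterol hydroxylase Cyp27a1 higher (0.59, adjusted p = 0.002275). Cyp27a1 was also called against PairFed (0.54, edgeR adjusted p = 0.01136), and its calls held in all 15 such fits. Against Vehicle, the GDF15 median was 0.41 for the periportal and 0.23 for the pericentral list, each with 10 of 12 genes above 0. Of 14 genes known to be higher in male mouse liver, 1 fell, Selenbp2 (-0.70, adjusted p = 0.0495), with a median of -0.47, and of 9 known to be higher in females, 1 rose, Cyp17a1 (1.60, adjusted p = 0.003707), with a median of 0.51. Cyp17a1 kept its call in 15 of 15 such fits and Selenbp2 in 4.

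Of 10 hepatocyte markers, Cps1 (0.76, adjusted p = 0.0002743) and Tat (1.66, adjusted p = 0.01674) rose in GDF15 against Vehicle livers, and Tat was not called without Vehicle 1 or 3. Cps1 was also higher in GDF15 than in PairFed livers (0.72, adjusted p = 0.0006521), in all 15 fits that left out 1 library. Among markers of other cell types, the T cell gene Cd8a fell in GDF15 against Vehicle livers (-2.03, adjusted p = 0.0172, mean 0.411 CPM in GDF15 and 1.71 CPM in Vehicle livers), a call lost without Vehicle 1 or GDF15 2. The cholangiocyte gene Sox9 fell in PairFed against Vehicle livers (-1.31, adjusted p = 0.03365), a call lost without Vehicle 1, 2 or 3 or PairFed 2, 4 or 5. Summed CPM of 10 stellate cell and fibroblast markers was 233 to 573 in GDF15, 355 to 563 in PairFed and 400 to 706 in Vehicle libraries. For 10 Kupffer cell and macrophage markers it was 300.3 to 609 in GDF15, 374 to 505 in PairFed and 462 to 642 in Vehicle libraries. For 10 cholangiocyte markers it was 147 to 339 in GDF15, 173 to 295 in PairFed and 219 to 504 in Vehicle libraries. For 10 endothelial markers it was 223 to 389 in GDF15, 299 to 410 in PairFed and 259 to 326 in Vehicle libraries. For 9 T, NK and B cell markers it was 4.22 to 6.77 in GDF15, 4.30 to 11.6 in PairFed and 8.45 to 26.0 in Vehicle libraries. The part of these levels in the conjugating gene results was not tested.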
